A study of Homo sapiens with 12 samples.

Results

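Of the 3 libraries of SCC-15 cells carrying the hairpin shRNA3 against FMOD, libraries 1 and 2 stood apart from library 3 and from every library of the other hairpins. These 2 libraries, here called the pair, are described against the 7 other libraries with an FMOD hairpin (3 of shRNA1, 3 of shRNA2 and library 3 of shRNA3), so 2 of 12 libraries in the series and 2 of 9 with an FMOD hairpin. The pair was chosen by its measured expression levels across genes, so every difference between the pair and the 7 is a description without a test. The question was which kinds of gene set them apart, among clock genes, stress genes, short-lived transcripts, transcripts without introns and genes of different length.

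SCC-15 is an established line of human oral squamous carcinoma cells. It was grown in DMEM with serum, and the cells of all 12 libraries carried a short hairpin RNA, which was shRNA-NC, a negative control, in 3 libraries (NC), and shRNA1-FMOD, shRNA2-FMOD or shRNA3-FMOD in 3 libraries each. Cells were lysed after 48 hours and RNA was sequenced on an Illumina instrument. The labels do not say whether the 3 libraries of a group came from separate cultures or clones, or whether the pair was collected at another time than library 3, and they name no promoter for the hairpins. If the libraries of a group were not separate cultures, the p-values below measure only the spread between these samples, which may be technical. FMOD, which encodes fibromodulin, an extracellular matrix proteoglycan, had 0 counts in the pair and in each of the 7, and 2, 2 and 3 counts in the NC libraries, so it does not separate the pair from the 7.

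The circadian clock is a feedback loop in which CLOCK and BMAL1 switch on the period and cryptochrome genes through E-box elements, and the proteins those genes encode then switch CLOCK and BMAL1 off. A second loop runs through NR1D1 and NR1D2, which repress BMAL1, and output factors such as DBP, TEF and HLF carry the rhythm to other genes. In cultured cells PER1 is also an immediate early gene: like FOS, DUSP1 and NR4A1 it can be induced within minutes of a change of medium, of hormone or of cAMP, without new protein synthesis, and its RNA is short-lived. Genes whose coding part lies in a single exon include most replication-dependent histones, some immediate early genes and some zinc finger and small enzyme genes.

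Levels are given in CPM, counts scaled to a common library total after adjustment by trimmed mean of M-values (TMM). A difference is the mean of log2(CPM + 0.5) in the pair minus that in the 7, which understates the difference of low genes. A gene was counted as above, or below, when both libraries of the pair lay beyond all 7 others and the difference was at least 2-fold. Of 15764 genes that passed the filter on low counts, 2399 (15.2%) were above and 2867 (18.2%) below, and the median difference over all of them was -0.02. At any size of difference, 31.2% lay above all 7 and 32.2% below. With the raw library totals in place of TMM that median was -0.38, with 1309 genes above (8.3%) and 4282 below (27.2%), so that genes above made 23.4% of those called against 45.6% with TMM. Differences below are on the TMM scale, and those near 0 can change sign with the raw totals.

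The pair held 17503267 and 17287017 counts, and the 7 held from 17350033 to 19567289. The libraries of the pair correlated at 0.992 in log2 CPM, with a median absolute difference of 0.14 per gene. Against each of the 7 they correlated at 0.877 to 0.909, with median absolute differences from 0.69 to 0.83, whereas the 7 correlated with each other at 0.958 to 0.993. Library 3 of shRNA3 correlated at 0.895 and 0.891 with its 2 namesakes. In shRNA1, libraries 1 and 2 correlated at 0.992 with each other and at 0.977 and 0.981 with library 3. In shRNA2 each pair of libraries correlated at 0.993. TMM factors were 0.792 and 0.814 in the pair and lay between 1.01 and 1.10 in the 7. The 50 most abundant genes took 16.4% and 15.7% of the counts in the pair and 10.7% to 15.9% in the 7, and the part of these shares in the results was not tested.

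Markers of the cell line were present in the pair. The summed level of 8 squamous epithelial markers lay between 3657 and 4063 CPM, above the range of 1736 to 2429 in the 7 and of 2627 to 2825 in NC. ITGB4 held a large part of that sum, at 1949 and 1646 CPM against 291 to 669 in the 7. Of the 8 markers 4 were above and 0 below, 6 differences were positive and the lowest was -0.86. KRT5 was at 82.6 and 88.2 CPM in the pair, 15.96 to 79.3 in the 7 and 965 to 1049 in NC. The fibroblast list of 8 genes summed to between 79.1 and 84.6 CPM against 14.98 to 46.6 in the 7, nearly all of it COL1A1, while COL3A1, PDGFRA, LUM and FAP were at 0 in both libraries. The leukocyte list of 8 summed to between 229 and 236 CPM against 47.8 to 116, nearly all of it CD68, a lysosomal protein, while PTPRC, CD3E and CD2 were at 0. The endothelial list of 6 summed to between 8.53 and 9.90 CPM against 3.89 to 13.8, with KDR and TEK at 0. In bulk RNA fewer cells of a type and less RNA per cell cannot be told apart, and the part of these markers in the results was not tested.

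The genes that first marked the pair were PER1, NR1D1, SLC2A14, KLF3-AS1 and TMEM265. PER1 (ENSG00000179094, chr17:8140472-8156506, minus strand, GRCh38), a core clock repressor, stood at 864 and 788 CPM in the pair and at a lowest, median and highest level of 7.98, 24.96 and 28.1 CPM in the 7, a 41.1-fold ratio of means. NR1D1 (ENSG00000126368, chr17:40092787-40100725, minus strand), the nuclear receptor of the second clock loop, stood at 1158 and 1001 CPM against 19.6, 22.98 and 40.0 CPM. Neither gene's level overlapped between the pair and the 7, and NC was also far below the pair, at 48.5 to 65.6 CPM for PER1 and 12.5 to 13.2 CPM for NR1D1. NR1D1 ends inside THRA on the other strand. Whether reads were assigned by strand is not given in the sources used here. THRA itself was at 115 and 109 CPM in the pair against 30.2 to 48.4, far less than NR1D1 in either.

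KLF3-AS1 (ENSG00000231160, chr4:38612701-38664883, minus strand), a long non-coding RNA that starts beside KLF3, had the largest difference of the 4 markers tested, 6.50. It was at 111 and 150 CPM in the pair and at 0.529, 0.816 and 1.45 CPM in the 7, with NC at 0.707 to 1.88. KLF3, on the opposite strand, was at 169 CPM in both libraries of the pair against 56.2 to 89.1. SLC2A14 (ENSG00000173262, chr12:7812512-7891148, minus strand), a glucose transporter gene, was at 128 and 117 CPM against 0.435, 2.88 and 9.47 CPM. Its sequence is close to that of its neighbour SLC2A3, which was at 610 and 567 CPM in the pair and 72.1 to 157 in the 7, so reads of the 2 genes may have been divided unevenly in counting.

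TMEM265 (ENSG00000281991, chr16:30740381-30744281, plus strand), which encodes a predicted transmembrane protein, was counted in the pair and not in the 7. It had 1841 and 2120 counts in the pair, 0 in each of the 7, and 706, 684 and 572 in NC. The filter, which asked for counts in 3 of the 9 libraries, left it out, so it is not among the genes counted as above. TMEM265 lies inside the gene model ENSG00000282034 on the same strand, a readthrough of the SRCAP locus. That model showed the reverse pattern: 0 counts in both libraries of the pair, 644 in library 3 of shRNA3, 213 to 955 over all 7 and 59 to 244 in NC. SRCAP was at 100 and 85.4 CPM in the pair against 206 to 232, and in NC at 71.8 to 88.6. Against a floor of 3 counts per library, TMEM265 was at least 928-fold higher in the pair.

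RefSeq promoter windows, 250 bases before to 50 after the start, were found for 22 of the 26 clock genes tested. They are shown for PER1, TEF and BHLHE40, the clock genes above whose window holds an E-box, and for DUSP1, an immediate early gene above whose window holds an E-box and a cAMP response element (CRE). Coordinates are those of GRCh38.p14, the strand is that of the gene, and capitals mark the E-box CACGTG and the CRE TGACGTCA.
PER1, chr17:8152355-8152654, minus strand: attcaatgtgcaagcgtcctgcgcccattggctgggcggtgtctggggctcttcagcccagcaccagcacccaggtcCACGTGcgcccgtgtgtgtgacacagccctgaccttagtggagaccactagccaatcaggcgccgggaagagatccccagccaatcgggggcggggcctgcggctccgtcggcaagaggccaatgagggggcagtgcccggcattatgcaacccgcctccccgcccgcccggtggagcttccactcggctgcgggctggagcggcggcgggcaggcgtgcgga
TEF, chr22:41367205-41367504, plus strand: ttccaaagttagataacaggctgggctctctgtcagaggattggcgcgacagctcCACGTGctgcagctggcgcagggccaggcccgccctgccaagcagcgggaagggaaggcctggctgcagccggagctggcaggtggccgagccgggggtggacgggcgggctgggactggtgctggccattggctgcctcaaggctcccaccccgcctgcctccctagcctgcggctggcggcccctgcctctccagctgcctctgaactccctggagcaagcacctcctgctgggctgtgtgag
BHLHE40, chr3:4979187-4979486, plus strand: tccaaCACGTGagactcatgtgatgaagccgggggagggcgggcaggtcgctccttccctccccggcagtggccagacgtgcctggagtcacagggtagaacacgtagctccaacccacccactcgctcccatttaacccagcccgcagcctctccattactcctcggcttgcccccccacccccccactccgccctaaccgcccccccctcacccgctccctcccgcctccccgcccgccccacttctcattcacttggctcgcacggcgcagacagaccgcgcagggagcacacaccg
DUSP1, chr5:172771146-172771445, minus strand: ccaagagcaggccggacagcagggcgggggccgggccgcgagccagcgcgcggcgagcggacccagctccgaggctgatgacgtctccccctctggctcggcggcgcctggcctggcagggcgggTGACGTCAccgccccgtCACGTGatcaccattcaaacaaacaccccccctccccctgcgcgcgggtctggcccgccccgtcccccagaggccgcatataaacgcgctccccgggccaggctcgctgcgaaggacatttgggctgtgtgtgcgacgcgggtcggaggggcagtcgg

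An E-box, read on both strands, was found in 5 of the 22 clock windows (22.7%), those of PER1, TEF, BHLHE40, BHLHE41 and TIMELESS, of which TIMELESS was below. Over all 27305 windows the share was 7.43%, over the tested genes 10.1%, over genes above 9.3% and over genes below 11.7%. The immediate early list had an E-box in 6 of 26 windows (23.1%), a share like that of the clock list. A CRE was in 4 of those 26 windows (15.4%), in 1.98% of all windows, in 3.3% of genes above and in 4.13% of genes below. The windows of NR1D1, DBP and NR4A1 held neither of these, nor the D-box TTATGTAA, the AP-1 motif TGANTCA, the CArG box or the heat shock element. A match in this window describes its letters and not a bound site, and no match says nothing about elements elsewhere.

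Of the 29 clock genes listed, 26 passed the filter. Of these, 9 (34.6%) were above, 5 (19.2%) were below and 12 were neither, with a median difference of 0.62. Over all tested genes the shares were 15.2% above and 18.2% below. With the raw totals 7 were above and 9 below (0.22), where all genes had 8.3% and 27.2%. The arms of the clock differed in direction. Of the 4 activators 0 were above and 3 below: CLOCK stood at 13.7 and 12.8 CPM in the pair against 29.2, 43.6 and 50.8 in the 7 (difference -1.55), BMAL2 differed by -1.04 and NPAS2 by -1.03. BMAL1, the usual partner of CLOCK, was lower by less than 2-fold (-0.64), at 17.4 and 19.5 CPM against 20.6 to 39.5.

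Of the 5 period and cryptochrome genes that passed, 3 were above. PER1 led by a wide margin. CRY2 stood at 41.3 and 37.0 CPM against 6.77, 10.5 and 18.6 CPM (1.82), and PER2 at 50.7 and 42.5 CPM against 12.2 to 28.6 (1.26). PER3 (0.64) and CRY1 (-0.67) missed the 2-fold limit, in opposite directions. In the second loop NR1D1 was the one gene above, NR1D2 was higher without overlap by 0.60, and RORA (0.04) overlapped between the pair and the 7.

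Of the 6 output factors, 4 were above and 0 below. DBP (chr19:48630030-48637438), a D-box activator whose gene overlaps SPHK2 on the opposite strand, was at 293 and 273 CPM against 3.04, 13.8 and 29.7 CPM, a 16.7-fold ratio of means, while SPHK2 was lower in the pair, at 8.74 and 7.90 CPM against 21.4 to 32.6. BHLHE40, an E-box repressor, was at 766 and 710 CPM against 104, 149 and 257 CPM. TEF was at 30.1 and 24.9 CPM against 2.69, 5.51 and 6.73 CPM, and HLF at 2.60 and 2.35 CPM against 0.449 to 1.31. The D-box repressor NFIL3 (0.93) and the E-box repressor BHLHE41 (-0.64) were not called. Among the kinases and turnover factors, CSNK1E was above at 1393 and 1283 CPM against 226 to 367, and it shares its exons with the readthrough gene TPTEP2-CSNK1E, which was above as well (3.88). BTRC, which marks PER proteins for destruction, was at 2.75 and 4.56 CPM against 23.3 to 30.9 (-2.75), and TIMELESS was below by 1.04.

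**Figure D1:**
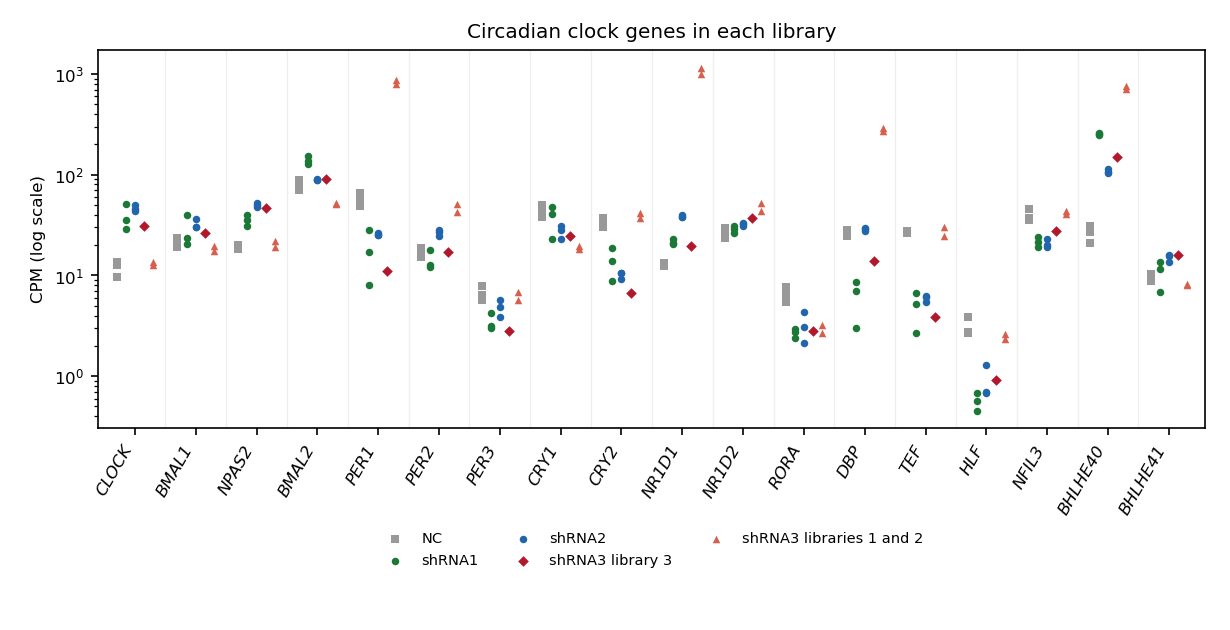
Level of 18 clock genes in each of the 12 libraries, in CPM on a log axis, with 1 point per library. The triangles of the pair sit near 1000 CPM for PER1 and NR1D1, above every other library, and below the 7 for CLOCK, NPAS2 and BMAL2.

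Library 3 of shRNA3, the namesake of the pair, lay with shRNA1 and shRNA2 for these genes, at 11.04 CPM for PER1, 19.6 for NR1D1 and 13.8 for DBP. The 7 also differed among themselves. In edgeR's quasi-likelihood test of shRNA1 and shRNA2 against NC, which uses neither library of the pair but shares 6 of the 7 with the contrast above, 75.9% of 17253 genes passed an adjusted p of 0.05 (36.2% higher and 39.7% lower). PER1 was lower there by 1.39 on the log2 scale (log2 fold change -1.39 ± 0.28 SE, adjusted p = 0.00101), NR1D1 higher by 1.22 ± 0.09 (adjusted p = 9.46e-08) and DBP lower (-0.97 ± 0.21, adjusted p = 0.00114). KLF3-AS1 did not pass (adjusted p = 0.314). Between shRNA1 and shRNA2, where 40.6% of genes passed (20.9% higher and 19.8% lower in shRNA1), DBP differed (adjusted p = 9.98e-05) and PER1 did not pass (adjusted p = 0.252).

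Immediate early genes were mostly higher in the pair. Of 34 members tested, 25 (73.5%) were above and 1 (2.9%) below, against 15.2% and 18.2% over all genes, with a median of 1.93. With the raw totals 21 were above and 2 below, where all genes had 8.3% and 27.2%. DUSP1 (ENSG00000120129), a phosphatase that switches off MAP kinases, was at 1842 and 1867 CPM in the pair against 70.2, 76.7 and 190 CPM in the 7. GADD45B, a stress sensor, was at 623 and 689 CPM against 22.5, 27.4 and 51.2 CPM. NR4A1 (ENSG00000123358), an orphan nuclear receptor, was at 276 and 257 CPM against 5.68, 11.9 and 18.7 CPM, and the small bZIP factor MAFF was at 539 and 508 CPM against 17.7 to 44.9. For all 4 the pair lay far from the highest of the 7. MAFF overlaps PLA2G6 on the opposite strand, which was at 73.6 and 77.2 CPM against 17.1 to 30.8. EGR1, a founding member of the class, was the other way, at 5.42 and 4.41 CPM against 7.06 to 12.3 and 74.6 to 121 in NC, and FOS was above by 1.42.

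Genes with short-lived, AU-rich messages were mostly higher too. Of 36 members, 20 (55.6%) were above and 1 (2.8%) below, against 15.2% and 18.2% over all genes. The median was 1.56, and 1.16 with the raw totals. PIM1, a kinase, was at 1000 and 1026 CPM against 42.9, 49.4 and 62.5 CPM. PLK3, a stress kinase, was at 225 and 222 CPM against 22.5 to 35.6, and IL1B, a cytokine, at 446 and 369 CPM against 36.5 to 64.5. The 1 member below was the chemokine CXCL2, under 1 CPM in the pair.

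Targets of cAMP and CREB overlap with both lists and with the clock through PER1. Of 16, 10 (62.5%) were above and 0 below, against 15.2% and 18.2% over all genes. The median was 2.02, and 1.62 with the raw totals. FOSB was at 70.0 and 61.0 CPM against 3.05 to 16.3. Glucocorticoid targets had 8 of 17 (47.1%) above and 0 below, with a median of 0.89 (0.48 with the raw totals). TSC22D3 (ENSG00000157514, chrX:107713221-107777342), a glucocorticoid-induced leucine zipper gene, was at 889 and 742 CPM against 7.28, 14.8 and 16.4 CPM, a 62.8-fold ratio of means. FKBP5, another target of the receptor, was at 26.4 and 26.1 CPM against 28.3 to 55.0, so members of the list differed in direction.

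Genes linked to FOXO factors and to quiescence were above in 16 of 24 cases (66.7%) and below in 1 (4.2%). Over all genes the shares were 15.2% and 18.2%. The list's median was 1.71, and 1.34 with the raw totals. TXNIP (ENSG00000265972), an inhibitor of thioredoxin that also restrains glucose uptake, was at 4268 and 4009 CPM against 263, 368 and 507 CPM. It was among the 5 genes with the largest gain in CPM. PIK3IP1, an inhibitor of PI3 kinase, was at 46.1 and 38.9 CPM against 0.798, 1.49 and 3.75 CPM, and GADD45A at 358 and 380 CPM against 32.1 to 72.4. ARRDC3, a paralogue of TXNIP that shares its glucose-sensing regulation, was the 1 below, at 15.8 and 13.7 CPM against 41.03 to 118.

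TXNIP, TEF, CRY2, KLF9 and PRSS8 were low in the 7 and stood at a comparable or nearer level in NC. TXNIP was at 1973 to 2248 CPM in NC, and shRNA1 and shRNA2 were lower than NC by 2.57 ± 0.10 SE on the log2 scale (log2 fold change -2.57, adjusted p = 1.64e-10). PRSS8, an epithelial serine protease, was at 157 and 174 CPM in the pair, 2.89 to 10.9 in the 7 and 176 to 186 in NC. For PER1, NR1D1, DUSP1 and GADD45B the pair instead lay far above NC too. Over all genes above, 1879 (78.3%) were above all 3 NC libraries as well, 325 were below them and 195 overlapped. Of the genes below, 2294 of 2867 were below all 3 NC libraries. These counts use the same 2 libraries as the calls and add no independent support.

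**Figure D2:**
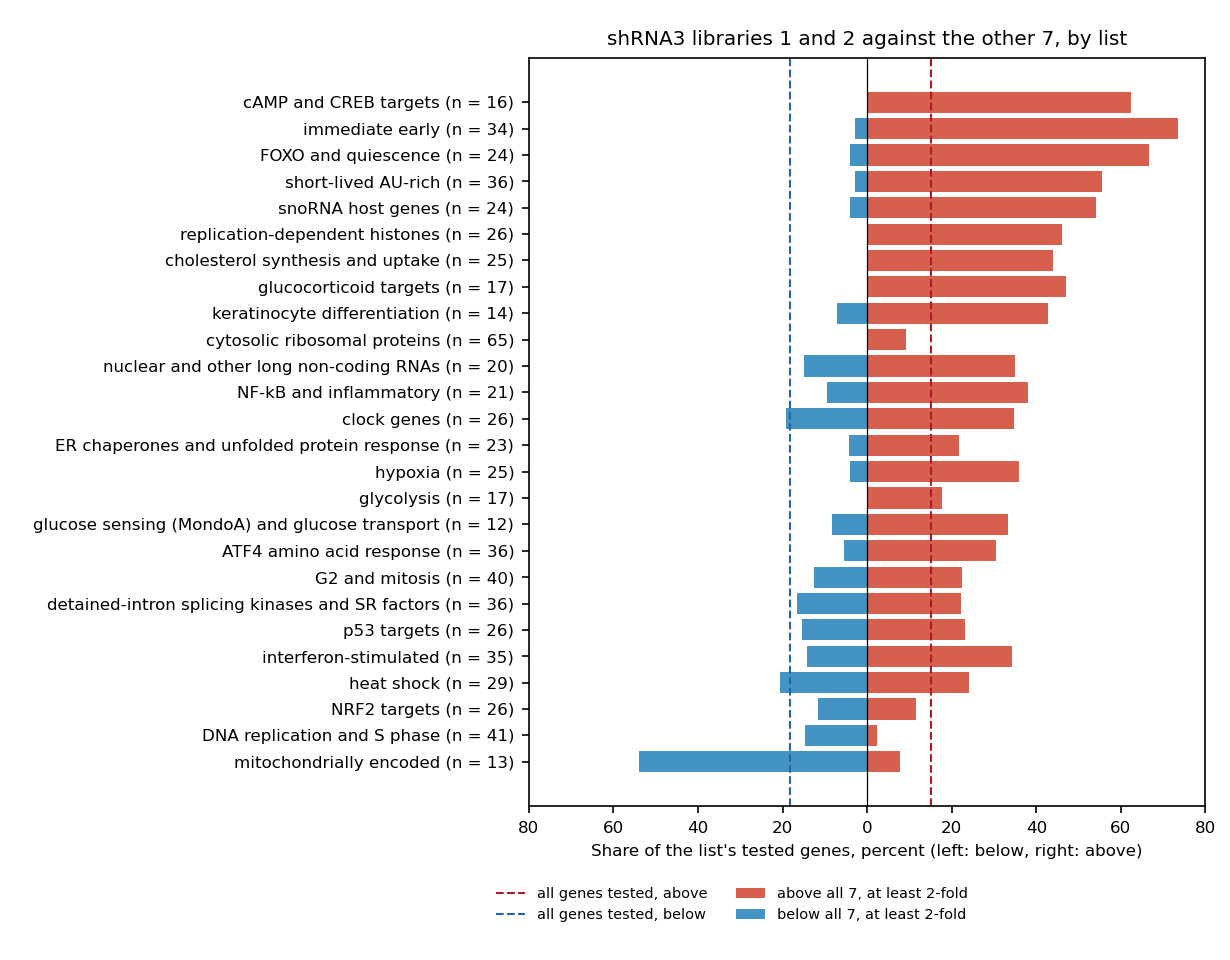
Share of each list's tested genes that were above (right) or below (left) all 7 by at least 2-fold in the pair, ordered by the list's median difference, with the number tested. Dashed lines mark the shares over all 15764 genes, 15.2% above and 18.2% below.

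Classical stress programmes had members on both sides, as had all tested genes together (15.2% above and 18.2% below, with the raw totals 8.3% and 27.2%). Of 29 heat shock genes, 7 were above (24.1%) and 6 below (20.7%), with a median of -0.06, and with the raw totals 4 and 8. HSPA5, the chaperone of the endoplasmic reticulum, was at 3668 and 3699 CPM against 486, 498 and 733 CPM. HSPA4L, a cytosolic chaperone, was at 19.2 and 15.3 CPM against 35.2 to 77.9. Of 23 genes of the unfolded protein response 5 were above (21.7%) and 1 below (4.3%), with a median of 0.62. HSP90B1 was at 1592 and 1557 CPM against 509 to 661, and ERN1, the sensor IRE1, at 49.7 and 50.1 CPM against 11.3 to 13.8.

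The amino acid response under ATF4 had 11 of 36 above (30.6%) and 2 below (5.6%), with a median of 0.33. With the raw totals it had 9 above and 7 below, and against library 3 of shRNA3 alone 6 and 6. GDF15, a stress cytokine, was at 767 and 852 CPM against 40.2 to 179, and NUPR1 at 24.1 and 26.1 CPM against 1.03 to 3.65, while the cystine transporter SLC7A11 was at 30.1 and 24.3 CPM against 87.0 to 182. Targets of p53 had 6 of 26 above (23.1%) and 4 below (15.4%), with a median of 0.19. BBC3, which encodes the killer protein PUMA, was at 152 and 153 CPM against 11.5 to 27.9, and TIGAR at 0.361 and 0.356 CPM against 6.61 to 43.4. NRF2 targets had 3 above and 3 below of 26 (11.5% each, median -0.16), and with the raw totals 2 and 6. Hypoxia genes had 9 of 25 above (36.0%) and 1 below (4.0%), with a median of 0.54. With the raw totals they had 4 above and 3 below (0.13). ADM led at 186 and 227 CPM against 22.8 to 75.1. With the raw totals the medians of the ATF4 and p53 lists were below 0, at -0.07 and -0.20.

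Interferon-stimulated genes lay on both sides. Of 35, 12 were above (34.3%) and 5 below (14.3%), against 15.2% and 18.2% over all genes, with a median of 0.18. With the raw totals 7 were above and 9 below (-0.22). The factor IRF7 was at 62.8 and 73.0 CPM against 8.18 to 15.1, and IFITM1, a membrane protein against virus entry, at 1883 and 1720.2 CPM against 249 to 605. SAMD9 (chr7:93099513-93118023), whose coding part is 1 exon of 4767 bases, was at 2.02 and 2.21 CPM against 23.1, 37.3 and 58.9 CPM, and IFIT5, whose longest coding exon has 1441 bases, at 2.02 and 1.35 CPM against 9.95 to 19.3. Genes of NF-kB and inflammation had 8 of 21 above (38.1%) and 2 below (9.5%), with a median of 0.72.

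Proliferation genes had members on both sides. Of 41 genes of DNA replication and S phase, 1 was above (2.4%) and 6 below (14.6%), against 15.2% and 18.2% over all genes. Their median was -0.46, and 35 of the 41 differences were negative. With the raw totals 0 were above and 15 below, where all genes had 8.3% and 27.2%. Against library 3 of shRNA3 alone 0 were above and 12 below. CCNE2, cyclin E2, was at 5.20 and 5.98 CPM against 22.9 to 47.6, and CLSPN, a checkpoint mediator, at 13.6 and 10.2 CPM against 41.1 to 57.6. Of 40 genes of G2 and mitosis, 9 were above (22.5%) and 5 below (12.5%), with a median of 0.28. With the raw totals 2 were above and 7 below (-0.13). NEK2, a centrosome kinase, was at 264 and 248 CPM against 54.1 to 94.0, and HMMR, a spindle protein, at 1.52 and 3.27 CPM against 11.9 to 35.4.

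Of 63 replication-dependent histone genes listed, 26 passed the filter. Most messages of this class end without a poly(A) tail and have no introns, but H2BC18, 1 of those above, has 2 coding exons. Of the 26, 12 (46.2%) were above and 0 below, against 15.2% and 18.2% over all genes, with a median of 1.08. With the raw totals 7 were above and 2 below, where all genes had 8.3% and 27.2%. H2BC21 (ENSG00000184678) was at 110 and 108 CPM against 1.65, 3.28 and 14.8 CPM, and H2BC11 at 16.7 and 15.7 CPM against 1.82 to 5.19. Hosts of small nucleolar RNAs were above in 13 of 24 cases (54.2%) and below in 1 (4.2%), with a median of 1.10. With the raw totals they were above in 4 cases and below in 2 (0.70). SNHG3 was at 82.7 and 91.1 CPM against 10.4 to 18.1. The nuclear RNA MALAT1 was at 1071 and 998 CPM against 120 to 284, and NEAT1, the scaffold of paraspeckles, at 1080 and 1125 CPM against 153 to 314. Splicing regulators whose messages keep introns had 8 of 36 above (22.2%) and 6 below (16.7%), against 15.2% and 18.2% over all genes. The median was 0.25, and with the raw totals 5 were above and 10 below (-0.16). CCNL1 was at 287 and 279 CPM against 41.1 to 64.1.

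Sterol genes were above in 11 of 25 cases (44.0%) and below in 0, against 15.2% and 18.2% over all genes. Their median was 0.91 with 23 of the 25 positive, and with the raw totals 0.50 with 19 positive. INSIG1, which retains the sterol sensor, was at 376 and 349 CPM against 27.4, 39.2 and 51.1 CPM. All 65 ribosomal protein genes had a positive difference, with a median of 0.76, although only 6 passed 2-fold (1 with the raw totals and 17 against library 3 of shRNA3 alone), and 61 of the 65 were positive with the raw totals (median 0.35). RPL28 led at 1391 and 1439 CPM against 365 to 630. Of 33 keratinocyte differentiation genes listed, 14 passed the filter. Of these 6 were above and 1 below (0.84), and with the raw totals 4 and 2, with KRT16 at 81.3 and 78.7 CPM against 9.22 to 26.9. Among those left out, KRT1, IVL, LORICRIN and CRNN had 0 to 3 counts in each library of the pair and at most 18 in each of the 7. The largest gains in CPM of the raw total among genes without overlap were those of FTH1, EEF1A1, H19, TXNIP and MT-RNR2, and the largest losses those of KRT7, MT-CO3, SLC7A5, HSP90AA1 and EIF4G2. FTH1, the ferritin heavy chain, was at 11160.0 and 11664 CPM against 3084 to 4698, H19, an imprinted long non-coding RNA, at 13659 and 13617 CPM against 4536 to 9359, and KRT7, a simple epithelial keratin, at 710.0 and 807 CPM against 1632 to 2175. H19 and KRT7 were under 20 CPM in NC.

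The mitochondrial genome is copied as long transcripts that are then cut into single messages, yet its genes did not share 1 direction in the pair. Of 13 protein-coding mitochondrial genes, 7 (53.8%) were below and 1 (7.7%) above, against 18.2% and 15.2% over all genes. The median was -1.09, and -1.50 with the raw totals. MT-CYB, the cytochrome b gene (14747 to 15887 of the mitochondrial chromosome), was at 148 and 137 CPM against 602, 781 and 833 CPM, and MT-ND3 at 76.7 and 97.9 CPM against 333 to 521. MT-CO3 was at 638 and 632 CPM against 1506 to 1968. MT-ND6, named after its values were seen and the 1 message encoded on the other strand, was above at 202 and 230 CPM against 89.4 to 125, and MT-CO1 overlapped the 7 at 5384 and 5052 CPM against 4016 to 5476. The large ribosomal RNA MT-RNR2 was above, at 6588 and 7006 CPM against 2212, 2414 and 2846 CPM. Mitochondrial genes together took 1.63% and 1.67% of the counts in the pair and 1.62% to 2.22% in the 7.

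**Figure D3:**
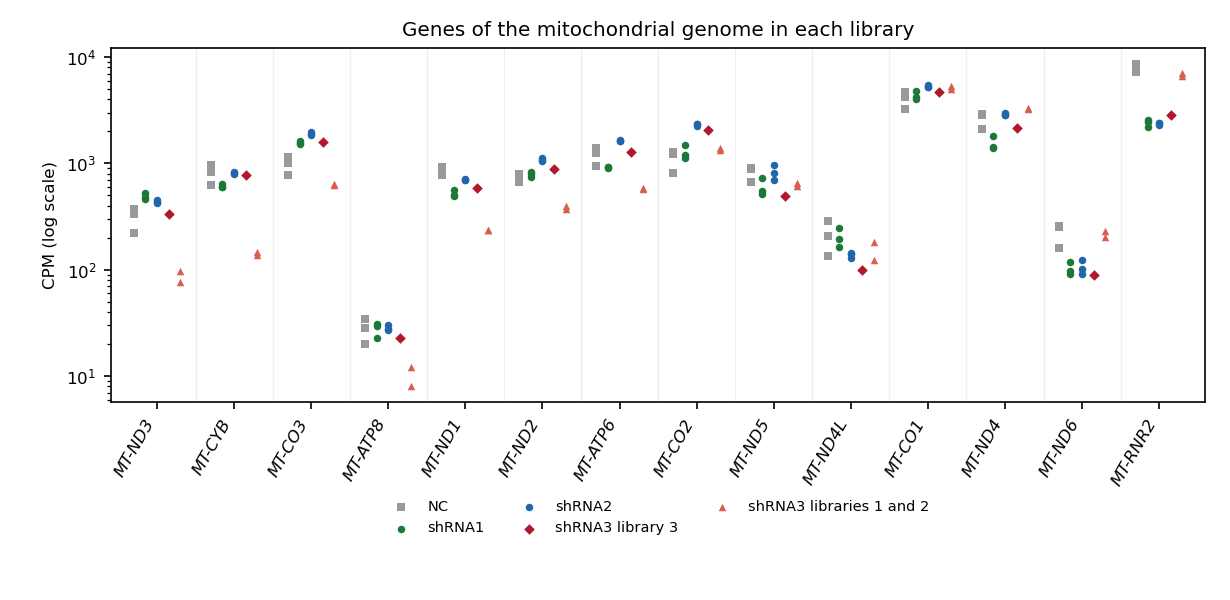
Level of the 13 protein-coding genes of the mitochondrial genome and of the ribosomal RNA MT-RNR2 in each of the 12 libraries, in CPM on a log axis, ordered by difference. The pair sits below all other libraries for the first 7 genes, and between the 7 and NC for MT-RNR2.

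Many of the genes lowest in the pair have long coding exons. The 10 genes with the most negative difference among those of at least 5 CPM were HPS6, PRMT6, ATP5MF-PTCD1, MOCS3, ZBTB22, ZBTB9, TIGAR, FADD, DOLK and SLC35C1. HPS6, PRMT6, MOCS3, ZBTB22, ZBTB9 and DOLK, 6 of the 10, have their whole coding part in 1 exon. Among all protein-coding genes tested 719 of 12984 have this. The longest coding exon has 338 bases in FADD, 429 in TIGAR, 557 in SLC35C1 and 822 in ATP5MF-PTCD1. HPS6 (ENSG00000166189, chr10:102065390-102068038, plus strand), a gene of lysosome-related organelles with 1 coding exon of 2325 bases, was at 1.01 and 0.285 CPM in the pair against 40.4, 45.1 and 64.3 CPM in the 7 and 31.4 to 36.7 in NC. PRMT6 (ENSG00000198890, chr1:107056679-107067636, plus strand), an arginine methyltransferase with 1 coding exon of 1125 bases, was at 0.361 and 0.214 CPM against 27.7, 29.9 and 31.3 CPM. The ratio of means was 72.9-fold for HPS6 and 103-fold for PRMT6, lower in the pair, and no library of the 7 or of NC came near it.

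ZBTB22 (ENSG00000236104, chr6:33314406-33317942, minus strand), a zinc finger gene with 1 coding exon of 1902 bases, had 0 counts in both libraries of the pair and 7.68, 15.7 and 18.4 CPM in the 7. Against the floor of 3 counts per library this is at least 63.2-fold lower. MOCS3 (chr20:50958826-50963931), a sulphur carrier enzyme with 1 coding exon of 1380 bases, had 2 and 3 counts in the pair and 308 to 522 in the 7. FADD (ENSG00000168040, chr11:70203163-70207390), an adaptor of death receptors with 2 coding exons, was at 2.46 and 2.56 CPM against 51.5, 57.6 and 61.8 CPM, so the pattern was not limited to genes with 1 coding exon. ATP5MF-PTCD1 is a readthrough model that shares exons with ATP5MF and PTCD1, which differed from the 7 by 0.70 and -1.02.

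**Figure D4:**
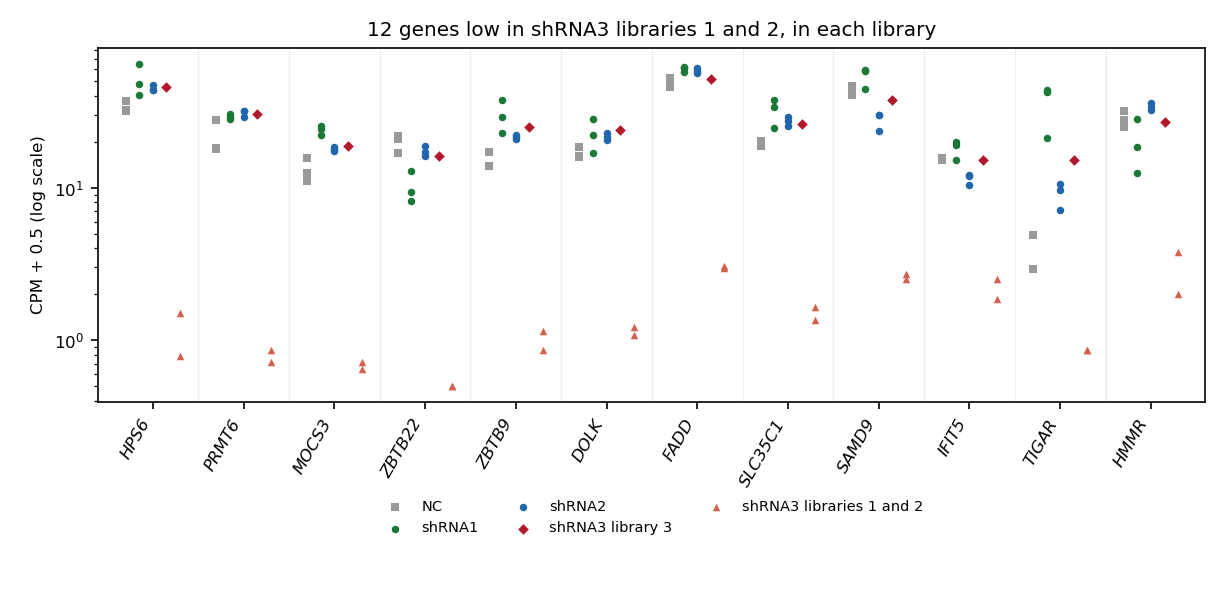
Level of 12 genes low in the pair in each of the 12 libraries, in CPM + 0.5 on a log axis. The triangles of the pair lie under 5 CPM, below the NC, shRNA1 and shRNA2 libraries and library 3 of shRNA3 for each of the 12.

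Counts near 0 were searched across the table, filtered or not. With at most 3 counts in both libraries of the pair and at least 50 in each of the 7 there were 20 genes, and 18 of them had at least 20 counts in every NC library. Of the 20, 18 encode proteins, and 9 have their coding part in 1 exon, a class of 719 among the 12984 protein-coding genes tested. A coding exon of over 1000 bases was found in 14 of the 20, a class of 288 ZNF genes and 1557 others among the 12984. TLR3, a receptor of double-stranded RNA named after its values were seen, had 2 counts in each library of the pair and 73 to 182 in the 7. In the other direction 12 genes had at least 20 counts in both libraries of the pair and at most 3 in each of the 7, and 8 of these had at most 3 in every NC library. Of the 12, 4 encode proteins. The filter on low counts was passed by 0 of these 12 and by all 20 of the others. So none of the 12 is among the genes counted as above, and the 2 sets are not equally represented in the counts above and below. Between them, 38 genes had at least 500 counts in each NC library and at most 3 in each of the 7, and 33 of the 38 were also at 3 or fewer in the pair. GALNT18, GGT7, RRAGD, TMEM265 and TUB were the other 5.

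Over the 12984 protein-coding genes tested, 13.7% were above and 19.3% below, with a median of -0.06. The 719 genes with their coding part in 1 exon had a median of -0.45, with 34.6% below and 16.8% above. This class held opposing groups. Its 30 histone genes had a median of 1.18, with 16 above and 0 below, and its 8 genes from the immediate early and short-lived lists had 7 above and 0 below. The remaining 681 had a median of -0.56, with 36.6% below and 14.4% above. Genes with 1 coding exon were thus found on both sides.

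Length of the longest coding exon ordered the genes more evenly. In 965 genes whose longest coding exon has at most 150 bases, 8.0% were below and the median was 0.24 (-0.15 with the raw totals). The share below was 15.4% at 201 to 300 bases, 26.4% at over 500 and up to 800 and 36.4% at 1201 to 2000. Above 2000 bases, in 468 genes, it was 36.5%, with 7.3% above and a median of -0.68. Genes named ZNF, whose zinc fingers usually lie in 1 long last exon, stood below often: of 378, 174 (46.0%) were below and 13 above, with a median of -0.88. In the 288 ZNF genes with a coding exon of over 1000 bases the median was -1.07, in the 90 others it was -0.29, and in 1557 genes with such an exon and another name it was -0.49.

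GC content of the transcript ran in the other direction. In 5 classes of equal size from the lowest to the highest GC content, the median was -0.38, -0.29, -0.13, 0.18 and 0.44, and the share above went from 5.9% to 26.5%. With the raw totals the medians of the upper 2 classes were -0.20 and 0.07. Exon length and GC content were then crossed, with GC content in 4 classes of equal size. In the lowest GC class the median was -0.25 for genes whose longest coding exon has at most 500 bases and -0.79 for those over 1000 bases. In the highest GC class these medians were 0.57 and -0.08. Genes with the longer exons were lower in each of the 4 GC classes, and both kinds were higher in the highest GC class than in the lowest.

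**Figure D5:**
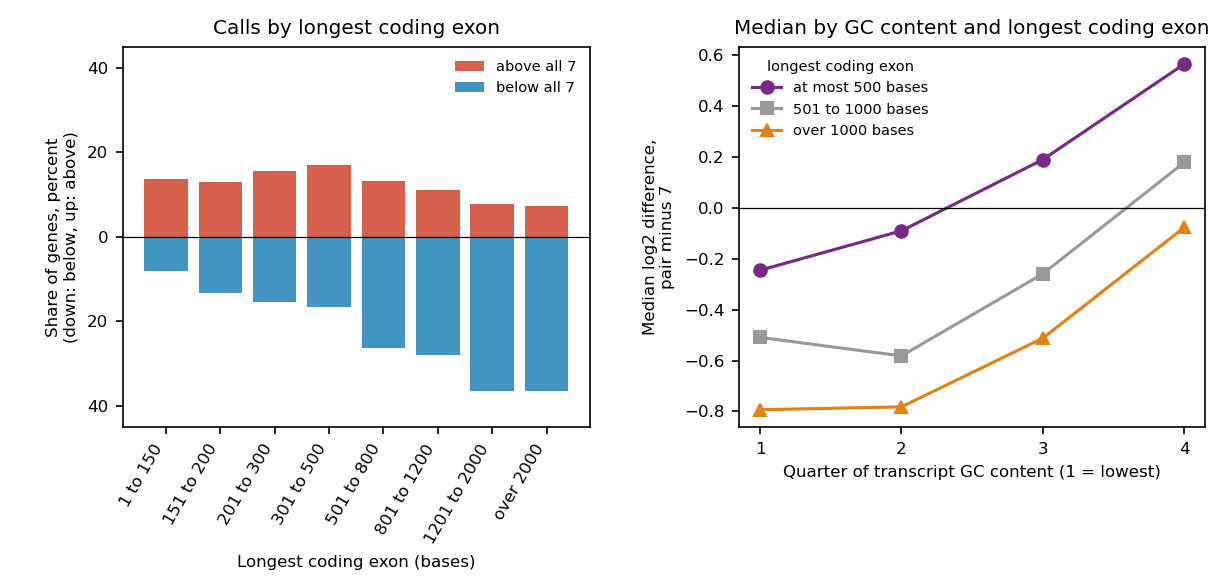
Left, share of protein-coding genes above or below all 7 in the pair, by longest coding exon in bases. Right, median log2 difference by transcript GC content in 4 classes of equal size for 3 classes of longest coding exon, where the line for over 1000 bases lies lowest in each.

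Gene length had a weaker relation. Genes were placed in 5 classes of equal size by each measure. By genomic span the shortest class (up to 10265 bases) had a median of 0.26 (-0.12 with the raw totals) and 20.9% above, the next to longest -0.22 and 10.0% above, and the longest -0.14 and 9.0% above, while the share below stayed between 17.1% and 21.3%. By coding length the shortest class (up to 765 bases) had a median of 0.30 (-0.08 with the raw totals) and 10.4% below, and the other 4 lay between -0.23 and -0.07. By level, the most abundant class had a median of 0.34 (-0.06 with the raw totals) and the next to lowest -0.31. Among genes of at least 5 CPM the class with a coding exon of over 1000 bases still had 34.1% below, against 15.1% in the class of at most 500 bases. Of 652 long intergenic non-coding RNAs 22.2% were above and 13.5% below, and of 753 antisense RNAs 21.4% and 14.9%. Over all tested genes the shares were 15.2% and 18.2%. Their medians were 0.13 for the intergenic and 0.11 for the antisense RNAs (-0.14 and -0.16 with the raw totals). By chromosome, the share above was largest on chromosome 19 (25.1% of 970 genes) and smallest on chromosome 18 (7.4% of 176). These features are properties of the annotation, and how the library preparation or the counting treated long exons or GC-rich transcripts was not tested.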

How the data were processed

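RNA-seq was measured in 12 libraries of SCC-15 cells. The table deposited by the authors holds estimated counts per gene, of which 13.8% are not whole, and these were rounded. HISAT2, HTSeq 0.11.2 and GRCh38 are named in the submitters' processing notes, with no role. The strand setting is not given in the sources used here. All 12 columns carried a sample's title. Of 61044 IDs, 58396 were in GENCODE 29 and 42028 had a symbol, and 27430 had 0 counts throughout.

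Genes were kept by edgeR's filterByExpr (minimum count 10, minimum total 15) over the 9 hairpin libraries, scaled by TMM, and compared on log2(CPM + 0.5). NC levels use scaling over 12 libraries. The pair was set against the 7 without a test. The tests of shRNA1 and shRNA2 against NC, and of shRNA1 against shRNA2, were edgeR quasi-likelihood fits over the 9 libraries of NC, shRNA1 and shRNA2, with Benjamini-Hochberg adjustment and a threshold of 0.05 (biological coefficient of variation 0.139). The fit was run on simulated data in which far fewer genes changed than passed here, so that run checks the code and not these results. R 4.3.3, edgeR 4.0.16 and DESeq2 1.42.0 were used.

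The members and the gene lists were chosen with earlier results of these data known. Named genes were the 5 markers, every clock gene, the 10 largest differences each way among genes of at least 5 CPM, the 5 largest gains and losses in raw CPM, and up to 4 per list. Other genes named were chosen after their values were seen, as were the classes of exon length and GC content. A gene's coding exons and GC content come from GENCODE 29, and were found for 12984 and 12973 protein-coding genes. Promoter windows come from RefSeq, GRCh38.p14, for 11140 of 15755 tested symbols. Some genes covered by the naming rule are not reported here.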

Additional observations from a re-analysis of the deposited data

How the results depend on the processing

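The counts of genes higher in shRNA3 libraries 1 and 2 (2399) and genes lower in shRNA3 libraries 1 and 2 (2867) became 1309 and 4282 with raw library totals. Leaving out 1 library at a time gave 2453 to 2626 above and 2876 to 2994 below. Every other alternative stayed within 1.5 times: DESeq2 size factors gave 2468 and 2817, no filter 2530 and 2999, a pseudocount of 2 CPM 1803 and 2190, library 3 of shRNA3 alone as the comparison 2059 and 2640, and the 7 with NC 2102 and 2428. Of 141 named genes, the difference moved by more than the spread between replicates in 72 with raw totals, in 15 with a pseudocount of 0.1 CPM, in 30 (100 others did not) against library 3 of shRNA3 alone, and in 7 without either library of the pair. RORA, near 0 and not called (0.04), was the 1 gene of the 141 to change sign, to -0.30 with raw totals.

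For shRNA1 and shRNA2 against NC and for shRNA1 against shRNA2, edgeR called 13089 and 7007 genes and DESeq2 13069 and 7262. Leaving out 1 library gave 12362 to 14260 and 5362 to 9217. Over NC, shRNA1 and shRNA2, deviations of same-numbered libraries correlated at a mean of 0.00788 over 9 pairs (-0.0619 to 0.0787). In these groups the replicate numbers thus gave no sign of pairing the samples. No shRNA3 library was in that check, so it says nothing about pairing in shRNA3. With the replicate number as a block the tests called 12960 and 6696 genes.

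The pair is 2 libraries, chosen by the values described, and differs from library 3 of its own hairpin, so no statement about shRNA3 follows. Genes of a few counts are limited by depth. Genes that overlap on opposite strands cannot be told apart without the strand setting, and near-identical genes or models on 1 strand not even with it.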
